A study of Mus musculus with 96 samples.

Results

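The centromere and kinetochore genes examined here were 40 genes listed by symbol, among 55487 genes counted in paired daughter HBCs. Horizontal basal cells (HBCs) are the reserve stem cells of the olfactory epithelium. The cells came from wild-type mice 6 to 8 weeks old, whose epithelium was taken 2 days after an injection of methimazole, a drug that injures the olfactory epithelium, and were grown as primary cultures. The methods describe a switch of the coating from tropoelastin to fibronectin before division. After a division both daughter cells were picked with a mouth pipette, so the 96 cells formed 48 pairs of 1 group. The labels name no mouse or culture for a cell, and no transgene or comparison condition. Without replicates of a condition, no p-values are given and every value describes these cells.

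In each division the kinetochore joins a chromosome to the spindle. It is built on the centromere, which is marked by nucleosomes that hold the histone H3 variant CENP-A. Inner proteins, the constitutive centromere-associated network (CCAN), sit on this chromatin and carry the outer KMN network, which binds microtubules. The spindle checkpoint proteins gather there and hold back anaphase until every chromosome is attached. Many of these genes are known to be transcribed mostly in G2 and mitosis, and new CENP-A is loaded after mitosis by HJURP and the Mis18 complex.

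G&T-seq copies polyadenylated RNA of single cells, and each cell had 29454150 to 44849003 reads on genes (median 36152760). ERCC transcripts, synthetic RNAs added to each lysate, took 1.06% to 5.75% of the counts and gave size factors from 0.387 to 1.93. Counts divided by these factors are called normalised counts, and levels are log2(normalised count + 1) unless given as TPM, the deposited value per length. The labelled cell type was checked with 5 HBC markers, of which 4 were counted in all cells and whose summed count was 9016 to 557362. The lists for 6 of 7 other cell types had median summed counts of 0 to 3. The immune list had a median of 60 and at most 11064, and its Spearman correlation with the mean level of the 40 genes was 0.00877. The correlations of the other 6 lists were -0.0627 to 0.200, the highest for the olfactory sensory neuron list. In 7 of 7 of these lists at least 1 defining marker was at 0 in every cell, but other markers were counted. The most widely counted marker was found in 74 cells for the immune list and in 92 for the endothelial list. In the remaining lists it was found in at most 22 cells. The summed immune count was at least 10 in 57 cells. The part of these reads in the results was not tested.

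Several of these genes are known targets of cell cycle control through the CHR element, TTTGAA, and the CCAAT box in their promoters, so these letters were searched on both strands in RefSeq windows of GRCm38.p6, from 250 bases before to 50 bases after a start site. Windows were found for 37 of the 40 genes, 42 windows in all, since 4 genes had several. A CHR element was in 16 windows (38.1%), against 17.9% of all 32851 windows. A CCAAT box was in 29 windows (69.0%), against 37.4% of all, and both were in 13 windows (31.0%), against 6.95%. For genes that passed the filter given below, the 3 shares were 12.4%, 38.1% and 5.26%. In the reference lists used below they were 84.2%, 84.2% and 73.7% for mitosis genes, and 5%, 65% and 5% for S-phase genes. For other centromere and kinetochore genes they were 53.3%, 53.3% and 33.3%, so these motifs were not particular to the 40 genes. The CHR element lay within 50 bases of the start site in 13 of the 16 windows (81.2%), against 27.6% of all windows with one. In the Cenpw window alone among the 42, a CHR element and a CCAAT box shared a base. The windows below belong to the gene with the highest likeness between daughter cells (Cenpa), to 3 genes that followed the mitosis genes most closely (Cenpe, Knl1, Cenpf), and to the gene that followed them least (Cenpb). Capitals mark CHR elements (TTTGAA or TTCAAA) and CCAAT boxes (CCAAT or ATTGG), and each sequence reads 5′ to 3′ along the gene.
Cenpa (chr5:30666636-30666935, + strand): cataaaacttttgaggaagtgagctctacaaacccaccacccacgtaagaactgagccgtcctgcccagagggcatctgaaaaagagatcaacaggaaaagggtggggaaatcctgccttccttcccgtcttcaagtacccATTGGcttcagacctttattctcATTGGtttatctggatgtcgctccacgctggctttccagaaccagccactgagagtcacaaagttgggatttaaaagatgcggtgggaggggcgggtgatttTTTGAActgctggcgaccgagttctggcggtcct
Cenpe (chr3:135212313-135212612, + strand): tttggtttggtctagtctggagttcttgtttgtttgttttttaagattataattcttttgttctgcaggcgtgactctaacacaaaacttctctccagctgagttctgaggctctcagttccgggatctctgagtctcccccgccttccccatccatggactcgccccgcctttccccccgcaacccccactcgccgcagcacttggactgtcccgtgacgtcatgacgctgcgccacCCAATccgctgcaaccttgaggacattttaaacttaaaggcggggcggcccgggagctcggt
Knl1 (chr2:119046869-119047168, + strand): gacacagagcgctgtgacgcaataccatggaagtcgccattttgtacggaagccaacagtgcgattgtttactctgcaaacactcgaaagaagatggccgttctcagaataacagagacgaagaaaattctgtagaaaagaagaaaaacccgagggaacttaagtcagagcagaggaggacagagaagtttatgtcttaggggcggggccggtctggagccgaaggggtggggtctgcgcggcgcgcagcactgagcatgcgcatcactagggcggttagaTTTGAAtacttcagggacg
Cenpf (chr1:189688037-189688336, - strand): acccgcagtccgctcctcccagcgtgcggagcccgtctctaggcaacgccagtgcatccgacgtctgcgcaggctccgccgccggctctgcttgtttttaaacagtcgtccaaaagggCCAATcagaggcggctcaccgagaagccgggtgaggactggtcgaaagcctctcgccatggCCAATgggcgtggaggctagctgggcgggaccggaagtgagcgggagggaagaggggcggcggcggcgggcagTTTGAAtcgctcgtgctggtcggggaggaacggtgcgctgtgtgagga
Cenpb (chr2:131180018-131180317, - strand): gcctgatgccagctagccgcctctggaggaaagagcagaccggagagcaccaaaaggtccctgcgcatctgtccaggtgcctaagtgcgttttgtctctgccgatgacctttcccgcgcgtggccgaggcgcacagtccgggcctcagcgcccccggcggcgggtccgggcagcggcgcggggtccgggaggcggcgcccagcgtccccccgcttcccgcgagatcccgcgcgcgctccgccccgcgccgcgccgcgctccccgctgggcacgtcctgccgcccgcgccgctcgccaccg

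The Cenpa window held 1 CHR element and 2 CCAAT boxes, and the Cenpf window the same numbers. The Knl1 window held a CHR element and no CCAAT box, and the Cenpe window held a CCAAT box and no CHR element. The Cenpb window held neither, and its GC content was 75.7%, against 50.7% for Cenpa. Across roles, CHR elements were found for 3 of the 4 genes of CENP-A and its deposition, 3 of 14 CCAN genes, 4 of 8 matched KMN genes, 1 of 2 corona genes, 3 of 6 checkpoint genes and 1 of 2 matched Ska genes. A match of letters is a description and not a bound site.

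All 40 genes passed the filter, which asked for a count of 10 or higher in 10% of the cells, as did 14463 of all genes. A count of at least 1 in every cell was found for 10 of the 40 (25%), against 31.8% of the genes that passed. These 10 were Cenpa, Cenpb, Cenpf, Cenpx, Hjurp, Spc24, Mis12, Pmf1, Bub3 and Zwint. With a minimum of 10 counts in every cell the number was 4, and with a TPM of at least 1 it was 3. The number of the 40 genes counted in a cell ranged from 25 to 40, with a median of 38. The median TPM over cells had a median of 16.5 over the 40 genes, against 7.12 over all genes that passed the filter.

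**Figure D1:**
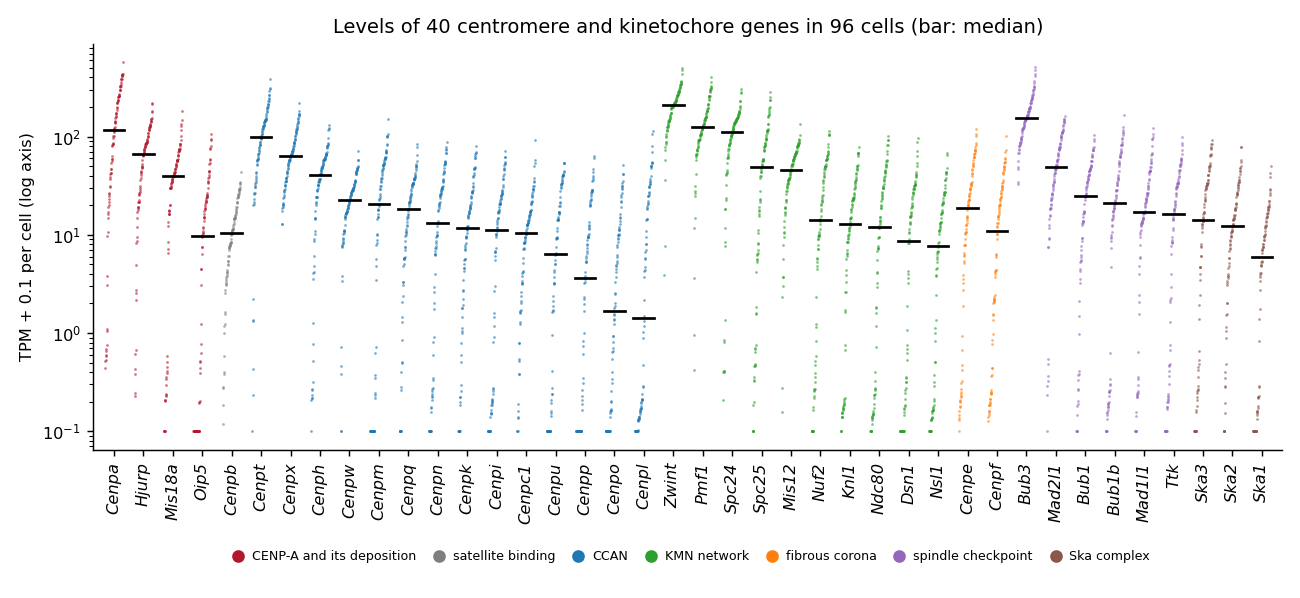
TPM + 0.1 (log axis) of the 40 genes in 96 cells, grouped by role. Each dot is a cell, the dots of a gene are sorted by value, and the black bar is the median, which was highest for Zwint (208 TPM) and lowest for Cenpl (1.32 TPM).

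The 4 genes of CENP-A and its deposition had medians from 9.64 to 118 TPM. Cenpa (ENSMUSG00000029177, chr5:30666777-30674830), which encodes the centromeric histone itself, had a lowest count of 9, a median of 3155 and a highest of 18057, and TPM values of 0.345 to 569 with a median of 118. Both extremes of this range lay in different divisions, with the lowest count in daughter 1 of pair 15 and the highest in daughter 2 of pair 3. Hjurp, the chaperone that loads CENP-A, was counted in all cells, with a median of 66.9 TPM. Mis18a, a subunit of the Mis18 complex that marks centromeres for loading, had a median of 39.5 TPM and was at 0 in 5 cells. Oip5, which encodes the other Mis18 subunit, had a median of 9.64 TPM, was at 0 in 31 cells and had the largest SD of the 40 genes on the log2 scale, 4.47. Exons of Oip5 overlap those of Nusap1 on the opposite strand, and the counting is not stated to use strand, so reads of both may be mixed. Nusap1 is in the mitosis list used below, with which Oip5 had a correlation of 0.605, and of 0.596 when Nusap1 was left out of the list, an alternative chosen after seeing the data.

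Cenpb, whose product binds a motif in the minor satellite DNA of mouse centromeres, had a median of 10.4 TPM, with a lowest count of 3 and a highest of 4237. Its exons overlap those of Spef1 on the same strand.

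The 14 CCAN genes had medians from 1.32 to 99.7 TPM. Cenpt, whose product connects the inner centromere to the KMN network, was the most abundant with a median of 99.7 TPM. It was followed by Cenpx, a histone-fold partner of the CENP-T complex, with 64.0 TPM, and Cenph with 40.9 TPM. Cenpx was also one of the least variable members, with counts of 148 to 2832 and an SD of 1.04 on the log2 scale. Cenpl, Cenpo and Cenpp had medians of 1.32, 1.57 and 3.50 TPM and were at 0 in 15, 24 and 30 cells. Of these 3, exons of Cenpo and Cenpp overlap other genes on the opposite strand, as do those of Cenpk, Cenpq, Cenpt and Cenpu.

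The 10 KMN genes had medians from 7.51 to 208 TPM. Zwint, which encodes the partner of KNL1 that recruits the ROD-ZW10-ZWILCH complex, had the highest median of all 40 genes, 208 TPM, with counts of 105 to 19568. Pmf1, a subunit of the MIS12 complex, had 126 TPM, while its partners Mis12, Dsn1 and Nsl1 had 45.5, 8.59 and 7.51 TPM. Within the NDC80 complex, which holds the microtubule, Spc24 and Spc25 had medians of 112 and 48.7 TPM, and Nuf2 and Ndc80 had 14.2 and 11.9 TPM. Knl1, the scaffold for checkpoint proteins, had 12.8 TPM. Counts of Mis12 may include reads of Derl2, whose exons overlap it on the opposite strand.

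Among the genes of the corona and the checkpoint, Bub3 was the most abundant, with counts of 1742 to 25409, a median of 154 TPM and the smallest SD of the 40 genes, 0.990 on the log2 scale. BUB3 carries BUB1 and BUBR1 to the kinetochore. Bub1, a checkpoint kinase, and Bub1b, which encodes BUBR1, had medians of 24.8 and 20.8 TPM. Mad2l1, which encodes the MAD2 protein that inhibits CDC20, had 48.7 TPM, Mad1l1 had 16.9 TPM and the kinase gene Ttk had 16.0 TPM. Cenpe, a motor protein gene, and Cenpf, which encodes a large coiled-coil protein of the fibrous corona, had 18.8 and 10.9 TPM. The genes of the Ska complex, which tracks microtubule ends, had 14.2 TPM for Ska3, 12.3 TPM for Ska2 and 5.87 TPM for Ska1. Exons of Mad1l1, Ska2 and Ska3 overlap other genes on the opposite strand.

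The levels of the 40 genes were mostly correlated over cells. Over the 780 combinations of 2 genes, the median Spearman correlation over 96 cells was 0.392, with 177 combinations above 0.5 and 7 below 0. These correlations share the size factors of the cells, and by CPM, a scaling without the spike-in, their median was 0.285. In reference lists used below, scaled by ERCC, the median was higher. It was 0.748 for 20 mitosis genes (175 of 190 combinations above 0.5) and 0.467 for 22 S-phase genes (97 of 231). For 18 other centromere and kinetochore genes it was 0.516 (81 of 153). The same median over all genes was not computed. Among the 780 combinations, the highest was 0.779, between Cenpe and Spc25, and the lowest was -0.108, between Cenpk and Mad1l1. Subunits of 1 complex were not always the closest: Ndc80 and Nuf2 reached 0.716 and Ska1 and Ska3 reached 0.671, whereas Spc24 and Spc25 had 0.485, Cenpa and Hjurp 0.315, and Dsn1 and Mis12 0.231. The nearest gene was Knl1 for 9 of the 40 genes and Cenpe for 7. By role, the median between 2 genes was 0.761 in the corona, 0.573 in the Ska complex, 0.523 in the checkpoint, 0.421 in the KMN network, 0.414 for CENP-A and its deposition, and 0.292 in the CCAN.

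**Figure D2:**
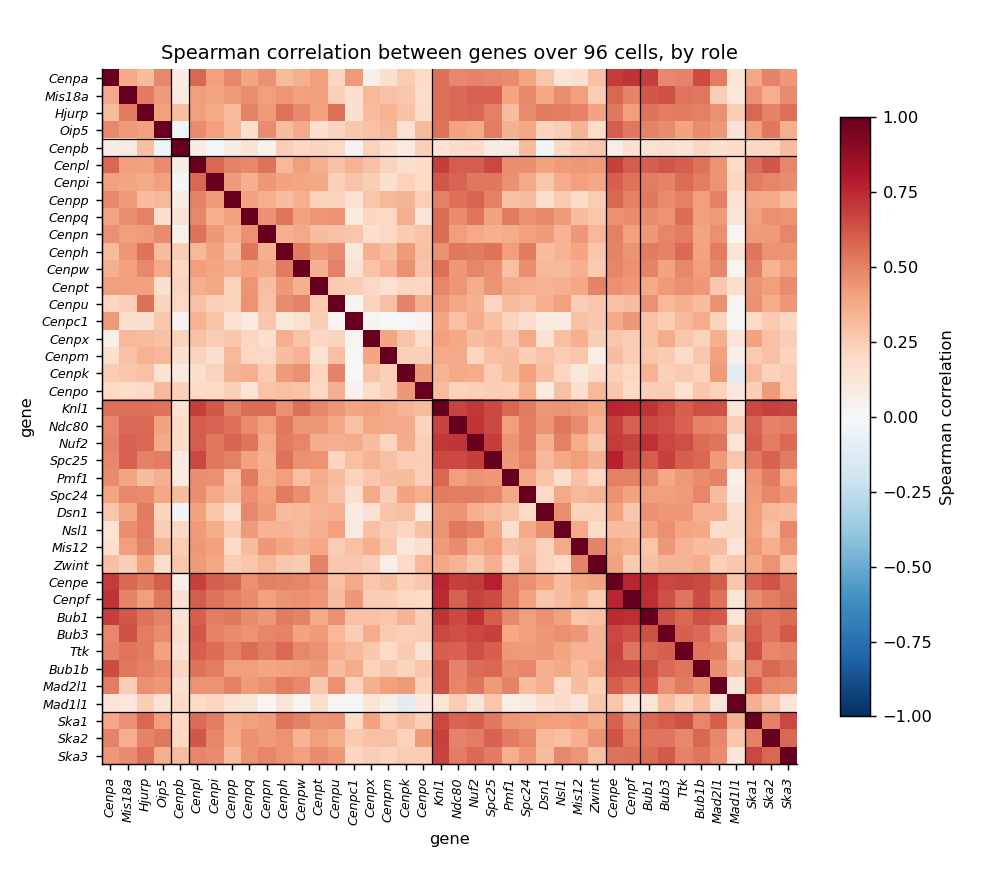
Spearman correlation over 96 cells between each 2 of the 40 genes, with genes grouped by role (black lines) and colour from -1 to 1. Cenpb and Mad1l1 appear as pale rows (median correlation with the other genes 0.168 and 0.137), and Cenpe, Knl1 and Nuf2 as dark ones (0.527, 0.551 and 0.510).

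The mean level of the 40 genes in a cell ranged from 3.60 to 11.74 on the log2 scale, with a median of 9.49. The lowest value was in daughter 2 of pair 29 and the highest in daughter 1 of pair 47. Over the 96 cells its Spearman correlation with the mean level of 20 other mitosis genes, among them Mki67, Top2a and Ccnb1, was 0.950, and it was 0.915 with both measures centred in the sets of 8 cells described below. With 22 genes of S phase, among them the Mcm2 to Mcm7 genes and Pcna, it was 0.255. Those 2 lists had a correlation of 0.105 with each other. The size factor entered all of these levels and had a correlation of -0.548 with the mean of the 40 genes. In CPM, which uses no spike-in, the correlations were 0.952 with the mitosis list, 0.132 with the S-phase list and -0.369 with the size factor.

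**Figure D3:**
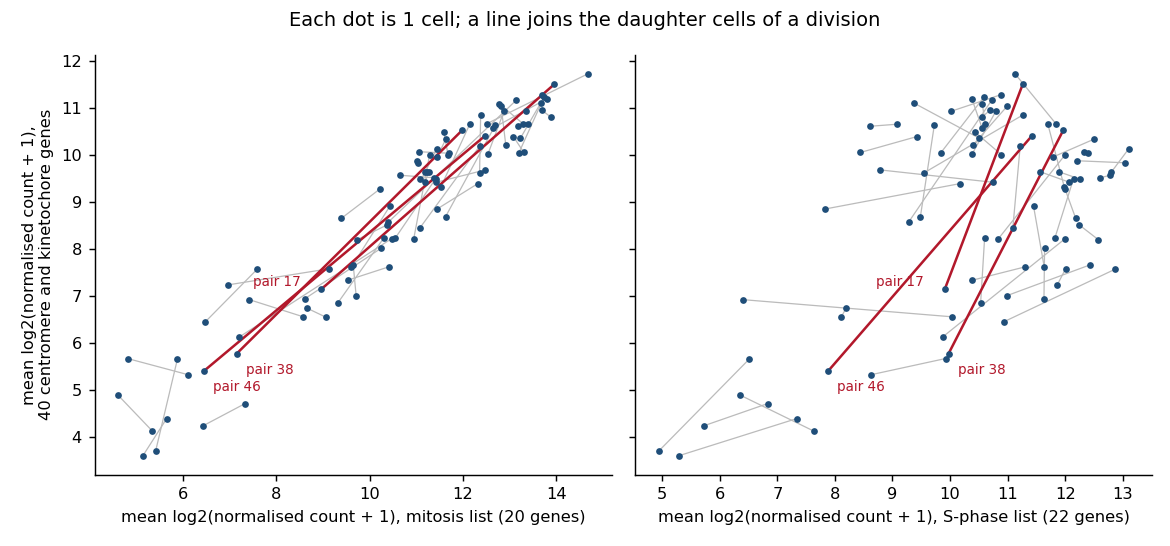
Mean log2(normalised count + 1) of the 40 genes (vertical axis) against that of the mitosis list (left) and the S-phase list (right); each dot is 1 of 96 cells and a line joins the daughter cells of a division. The cells lie along a rising band on the left (Spearman correlation 0.950) and are scattered on the right (0.255); red lines mark pairs 17, 38 and 46.

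For single genes, 28 of the 40 had a correlation above 0.5 with the mitosis list, against 2.95% of all 14463 genes, and the median was 0.608 against 0.158. None of the 40 was above 0.5 with the S-phase list, against 1.00% of all genes, and the median there was 0.218 against 0.117. The highest with the mitosis list were Cenpe (0.895), Knl1 (0.861), Cenpf (0.838) and Bub1 (0.820). Both corona genes, all 4 genes of CENP-A and its deposition and all 3 Ska genes were above 0.5, as were 5 of 6 checkpoint genes, 6 of 10 KMN genes and 8 of 14 CCAN genes. The exception among the checkpoint genes was Mad1l1 (0.257), which encodes the anchor of MAD2 at the kinetochore, and Cenpb had the lowest value of the 40 (0.181). Zwint, Mis12, Nsl1 and Dsn1 were the KMN genes at or below 0.5, with 0.426, 0.442, 0.477 and 0.491.

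The correlations with the S-phase list were graded over these genes. Cenph (0.442), Cenpu (0.438), Hjurp (0.438) and Cenpq (0.404) had the highest values, closely followed by Cenpw (0.399) and Nsl1 (0.389). Cenpa had the lowest, -0.155. For Cenpe and Cenpf they were 0.0166 and -0.0276. The genes whose level over cells was most like the mean of the 40 were Top2a (0.915), Smc4 (0.892), Ccna2 (0.887), Cdk1 (0.887) and Mki67 (0.886), followed by Incenp, Kif11, Prc1, Kif20b and Birc5 down to 0.857. Among 18 other centromere and kinetochore genes that are not in the list, 14 were above 0.5 with the mitosis list, led by Birc5 (0.909) and Cdca8 (0.884) of the chromosomal passenger complex. Of the 4 others, Zw10 and Kntc1 had 0.381 and 0.230, Cenps had 0.433 and Itgb3bp, which encodes CENP-R, had 0.276.

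Each of the 15 genes with a CHR element in a window was above 0.5 with the mitosis list, from 0.559 to 0.861. Of the 22 genes whose windows had none, 11 were above 0.5, with a range of 0.181 to 0.895. With a CCAAT box it was 18 of 25 genes and without one 8 of 12. Over all genes that passed the filter, of which 9677 had a window, the shares above 0.5 were 8.09% with a CHR element and 2.09% without, and 4.23% with a CCAAT box and 1.99% without. These counts were read after the correlations were known.

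Daughter cells of a division were alike in the mean level of the 40 genes, with an intraclass correlation over pairs of 0.726. Here 1 means that daughter cells were identical and 0 that they were no more alike than other cells. The same measure was 0.777 for the mean of the mitosis list and 0.762 for that of the S-phase list. The mean of the 40 genes differed by at least 1.5-fold between daughter cells in 26 of 48 pairs and by at least 2-fold in 18. By CPM these numbers were 18 and 7. The closest daughters were those of pair 10, with 10.08 and 10.04, followed by those of pair 32, with 10.62 and 10.66. The most distant were those of pairs 46, 38 and 17, described further below. The ERCC size factor, which enters both levels of a pair, had an intraclass correlation of 0.742 itself.

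Gene by gene, 12 of the 40 had an intraclass correlation above 0.5, against 6.90% of the 14463 genes, and the median was 0.407 against 0.160. In the mitosis list it was 17 of 20 genes (median 0.598) and in the S-phase list 11 of 22 (0.494). Of the 18 other centromere and kinetochore genes that are not in the list, 11 were above 0.5 (median 0.518). Each of these shares and medians was higher than that of the 40 genes. Of the 12, Cenpa had the highest, 0.796, above 99.9% of all genes tested. The others were Cenpe (0.709), Bub1 (0.636), Nuf2 (0.609), Oip5 (0.563), Cenpf (0.561), Mis12 (0.542), Cenpl (0.536), Ndc80 (0.528), Ska1 (0.518), Bub3 (0.501) and Spc25 (0.5001). With CPM the number was 7, against 4.40% of all genes. Oip5, Mis12, Cenpl, Ndc80, Ska1, Bub3 and Spc25 were then at or below 0.5. Knl1 (0.529) and Spc24 (0.521), which are not among the 12, were then above it. Of the 14 CCAN genes, Cenpl alone was above 0.5, and their median was 0.232, against 0.470 in the KMN network and 0.523 for CENP-A and its deposition. These roles also differed in level, with medians of 12.3, 29.8 and 53.2 TPM. Over all genes the median intraclass correlation was 0.145 between 1 and 10 TPM and 0.354 between 100 and 300 TPM. The part of level in the contrast of roles was not tested. The lowest intraclass correlations of the 40 were those of Mad1l1 (0.0620), Cenpi (0.0719) and Cenpx (0.123). For comparison, Trp63, the gene of the HBC factor p63, had 0.0316, and Krt5 and Krt14 had 0.466 and 0.561.

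**Figure D4:**
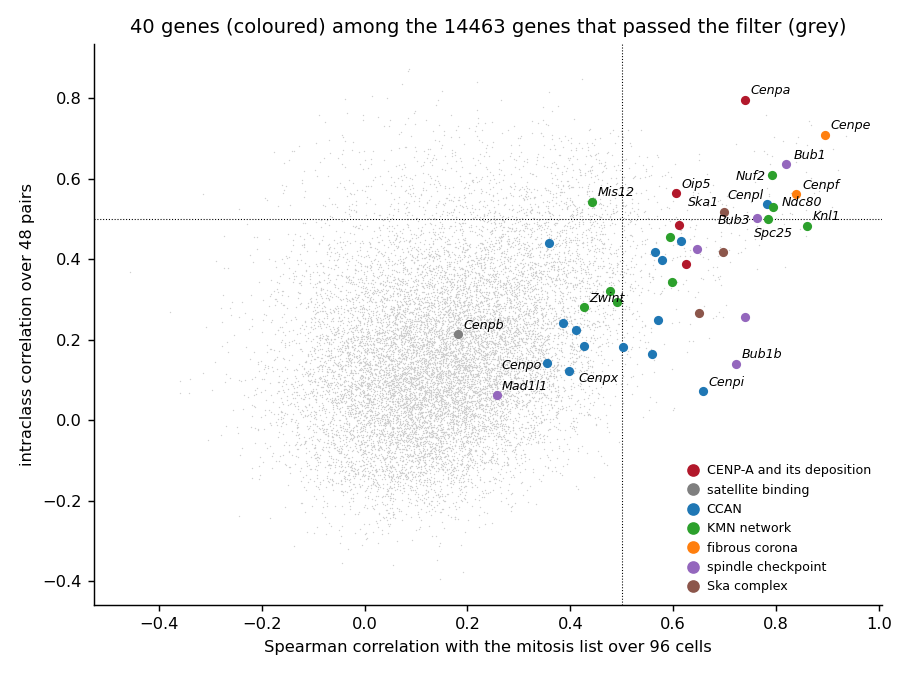
Intraclass correlation over 48 pairs (vertical axis) against the Spearman correlation with the mitosis list over 96 cells (horizontal axis), for the 40 genes (coloured by role) and all 14463 genes that passed the filter (grey); dotted lines mark 0.5. Cenpa and Cenpe lie at the upper right, and Cenpb (0.181) and Mad1l1 (0.257) lie farthest to the left.

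The higher daughter had at least 1.5 times the normalised count of Cenpa in 34 of 48 pairs. In 4 pairs chosen after the values were seen, its counts were close to each other or low in both daughters. In pair 14 the counts of Cenpa were 4889 and 5360, in pair 28 they were 10615 and 8204, and in pairs 15 and 29 they were 9 and 21, and 12 and 19. Of the 12 cells with fewer than 100 counts of Cenpa, 8 formed 4 complete pairs. In pair 14 the mean level of the 40 genes was low, 4.71 and 4.23, although the Cenpa counts were above their median in both cells. The widest ratio for Cenpa was in pair 36, with 1114 and 24 counts.

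For genes that were often at 0, pairs can be counted by presence. Oip5 was counted in both daughters of 28 pairs, in 1 daughter of 9 pairs and in neither of 11. Cenpp was counted in both of 28 pairs, in 1 of 10 and in neither of 10. Cenpo, at about the same level, was counted in both of 28 pairs, but in 1 daughter of 16 pairs and in neither of 4, and Dsn1 in both of 29, 1 of 16 and neither of 3.

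The deposited names place the cells in 12 sets of 8, each with 4 complete pairs, and whether a set was handled together is not stated. The mean level of the 40 genes differed between sets, from 6.29 in set 4 to 10.29 in set 3. Since daughter cells always share a set, differences between sets also enter the likeness of pairs. With every gene centred in its set, the intraclass correlation of the mean level was 0.578, and 3 of the 40 genes were above 0.5, against 1.80% of all genes. These were Cenpa (0.763), Cenpe (0.598) and Bub1 (0.539), which also stayed above 0.5 under each of the 8 alternatives to the processing that change this measure. The median over the 40 genes was then 0.221, against 0.00148 over all genes. With only 4 pairs in a set, centring also removes differences between divisions.

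The level of a gene bears on these values, and the 40 genes were also set beside genes and ERCC transcripts of like median TPM. Between 10 and 30 TPM, 5 of 19 of the listed genes were above 0.5, against 5.09% of 2732 genes, and between 30 and 100 TPM it was 2 of 8, against 8.91% of 2390 genes. Between 1 and 10 TPM it was 3 of 8, against 3.23% of 3064 genes, and between 100 and 300 TPM 2 of 5, against 19.4% of 932 genes. The median intraclass correlation of ERCC transcripts in these ranges lay between -0.0472 and 0.127. The size factors came from ERCC transcripts, among them those between 100 and 300 TPM. What daughter cells shared in these factors was therefore removed from ERCC transcripts by the scaling itself. Genes were only divided by the same factors, so the low ERCC values are not a like comparison for them.

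Differences between daughter cells of single genes were frequent, and also frequent in general. The higher daughter had at least 1.5 times the normalised count of the lower in at least 24 of 48 pairs for 37 of the 40 genes, against 79.5% of all genes. The median gene of the 40 passed this ratio in 75% of pairs, against 68.8% of all genes. The exceptions were Zwint with 20 pairs, Spc24 with 23 and Bub3 with 23. Mad1l1 and Ska3 passed the ratio most often, in 44 pairs each. The median ratio, on the scale of normalised count + 1, was 1.39 for Zwint, 1.49 for Bub3, 1.98 for Cenpa, 3.80 for Mad1l1 and 16.1 for Cenpi. In Cenpi the count was 0 in 1 daughter and 3890 in the other in pair 3.

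ERCC transcripts, of which both lysates received the same amount, passed the same ratio about as often at like TPM. Between 1 and 10 TPM the median was 87.5% of pairs for 5 ERCC transcripts and 82.3% for 8 of the listed genes. Between 10 and 30 TPM the median was 77.1% of pairs for 4 ERCC transcripts and 77.1% for 19 of the listed genes. Between 30 and 100 TPM it was 74.0% for 6 ERCC transcripts and 74.0% for 8 genes, and between 100 and 300 TPM it was 47.9% for 7 and 47.9% for 5. Each of these ranges held fewer than 20 ERCC transcripts, and whether the differences of the listed genes exceed the spread of the measurement was not tested.

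Counted by direction alone, the 40 genes did not move as 1 block within pairs in most divisions. The side with more of the higher genes held 18 to 39 of them, with a median of 23.5, and it held at least 30 in 7 pairs and at least 35 in 3. As a share of the genes that differed, the median was 60.3%, against 55.5% over all genes, and the larger side was that of all genes in 36 of 48 pairs. In pairs 11, 28, 36 and 45 the 40 genes were split 20 to 20 and had no larger side. Of these, pairs 28 and 45 are within the 36. The mean of the 40 genes and that of the mitosis list differed in the same direction in 35 of 48 pairs, and with the S-phase list in 32. Counts of direction leave out the size of a difference. With size included, differences between daughter cells in these 2 means had an uncentred correlation of 0.882 over pairs. For single genes against the mitosis list its median was 0.398 over the 40, 0.0852 over all genes and 0.599 in the mitosis list itself. Pairs with large differences weigh most in this measure, and the size factor enters it. None of the 40 genes moved in the same direction as Mki67, the proliferation marker, in at least 36 pairs, against 0.159% of all genes. At so small a share over all genes, none of 40 says little about these genes. In the mitosis list Mki67 alone reached 36 pairs, Ccnb1 had 35 and the median was 29. Of the 40, Bub1 and Bub3 came closest with 33 pairs each, Cenpm was lowest with 17, and the median was 28, against 24 over all genes. With Trp63 none of the 40 reached 36 pairs, against 0.0277% of all genes, and the median was 24, against 22. With the H3.3 genes H3f3a and H3f3b none reached it either, against 0.187% and 0.201% of all genes, and Pmf1 (34 pairs with H3f3a) and Cenpw (34 pairs with H3f3b) came closest. With the keratin genes Krt5 and Krt14 it was again none, against 0.249% and 0.207%, with at most 33 pairs for Ska2 and 35 for Bub3.

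**Figure D5:**
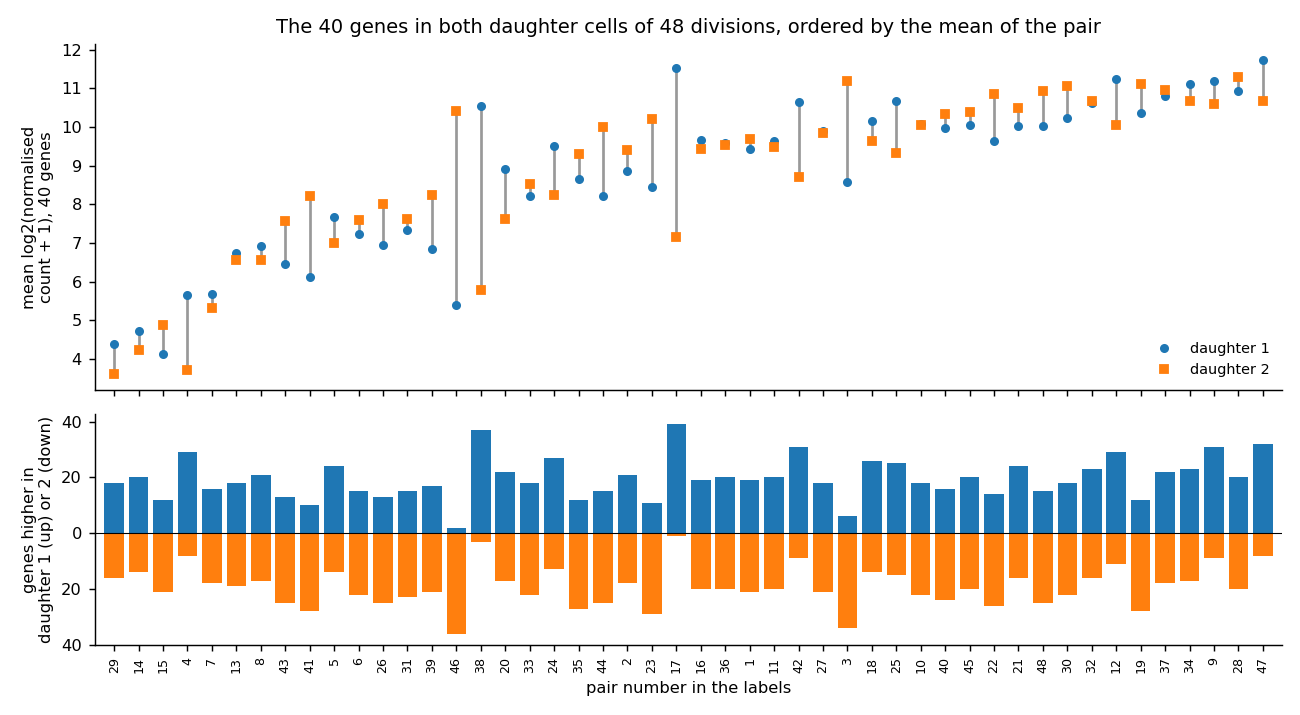
Upper panel, mean log2(normalised count + 1) of the 40 genes in daughter 1 (circles) and daughter 2 (squares) of each of 48 pairs, ordered by the mean of the pair. Lower panel, number of the 40 genes that were higher in daughter 1 (up) or daughter 2 (down); pairs 17, 38 and 46 have the longest lines and 39, 37 and 36 genes on 1 side.

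In 3 divisions the daughter cells lay far apart in the mean level of these genes. In pair 46 the mean level was 5.40 in daughter 1 and 10.41 in daughter 2, with 36 genes higher in daughter 2 and 2 in daughter 1. Of all genes, 59.7% were higher in daughter 2. The normalised counts were 11.7 and 3395 for Ndc80, 5.85 and 3618 for Nuf2, and 39.5 and 12155 for Hjurp. Mad1l1, with 1403 and 1651, differed by less than 1.5-fold in the same pair, and Oip5 was at 0 in both. The raw counts of Mki67 were 64 and 18101, and those of Trp63 ran the other way, 19637 and 37.

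In pair 38 the mean level was 10.54 in daughter 1 and 5.77 in daughter 2, and 37 genes were higher in daughter 1, as were 55.2% of all genes. The normalised counts were 4795 and 14.1 for Cenpf, 3755 and 20.6 for Cenpe, and 3708 and 8.45 for Knl1. Cenpa, however, had 1073 and 913, and Zwint had 13304 and 13106. Mad1l1 was higher in daughter 2, with 612 and 2691.

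In pair 17 the mean level was 11.51 in daughter 1 and 7.15 in daughter 2, and 39 genes were higher in daughter 1, as were 65.8% of all genes. The normalised counts were 19614 and 29.1 for Cenpf, 7810.1 and 20.35 for Knl1, and 17004 and 1053 for Cenpa. Oip5 had 391 and 300.4, and Zwint had 15128 and 10907. The raw counts of Mki67 were 37279 and 1977. The high daughter differed from the low one much more in Cenpf and Knl1 than in Zwint, in both pairs 17 and 38.

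The mitosis list lay apart in the same direction in these 3 pairs, with 6.44 and 12.47 in pair 46, 11.99 and 7.15 in pair 38, and 13.95 and 8.96 in pair 17. The S-phase list differed less, with 7.88 and 11.42, 11.97 and 9.97, and 11.26 and 9.91. The number of genes detected in these 6 cells ranged from 12360 to 14535. Size factors were 0.684 and 0.553 in pair 46, 0.911 and 1.07 in pair 38, and 0.673 and 1.03 in pair 17. By CPM these pairs were again the 3 with the largest differences, at 3.30, 3.09 and 2.85 on the log2 scale. Without them, an alternative chosen after their values were seen, the intraclass correlation of the mean level was 0.879. Then 19 of the 40 genes were above 0.5, against 7.67% of all genes. The pairs were picked for the largest differences in this mean, so a higher likeness of the 40 genes is built into the choice. All genes were not picked this way, so their share is not a like comparison.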

How the data were processed

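The mRNA of 96 daughter cells of 1 group was measured. Per the study's methods, reads were trimmed with Trimmomatic 0.39, aligned as pairs with STAR 2.7.11a to GRCm38 plus ERCC sequences and counted on genes with StringTie 2.2.1. The authors deposited raw counts per gene and cell, and TPM per gene and cell, scaled over genes and ERCC together. No unique molecular identifiers were used, so that PCR copies count as reads.

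Counts were divided by median-of-ratios size factors from the 22 of 92 ERCC transcripts with a count in each cell, and log2(normalised count + 1) was taken in Python 3.11.15 (numpy 2.4.6, scipy 1.17.1, pandas 2.3.3; figures with matplotlib 3.10.9). Genes had to reach a count of 10 in at least 10% of cells. The intraclass correlation was a one-way estimate over pairs and was tested on simulated data. Gene overlaps were taken from GENCODE exons of GRCm38. All 40 listed genes are named, grouped by role. The listed genes, the reference lists and the cutoffs were chosen with earlier results of these data known. Alternatives covered detection, scaling, pseudocount, filter, ratio, sets, Pearson correlation, and pairs or cells left out. Protein sequences were not used here.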

Additional observations from a re-analysis of the deposited data

How the results depend on the processing

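Of 75 values recomputed under alternatives, 66 stayed within 1.5 times the reported count or within 1 SD over genes, and 0 reversed. Every listed gene passed each alternative filter, so the values under those filters could not change. They are counted within the 66, which therefore overstates how stable the results were. A count cannot fall below 0, so only a median could change sign. The number of genes counted in every cell, 10, was 4 at a minimum of 10 counts and 3 at a TPM of at least 1. The number of genes with an intraclass correlation above 0.5, 12, was 7 with CPM, 7 with the median of ratios over genes, 7 with the deposited TPM, 3 after centring on sets and 19 without pairs 17, 38 and 46. The rise to 19 follows a choice of pairs by their large differences, and the cause of the other changes was not tested. Without pair 46 alone the number was 14. The median intraclass correlation, 0.407, was 0.221 after centring on sets. The median share of pairs past the ratio, 75%, was 60.4% at a ratio of 2. Under the 11 alternatives that change it, 19 of the 28 genes stayed above 0.5 with the mitosis list, and under the 8 that change it, 3 of the 12 stayed above 0.5 in likeness of daughter cells. The share of all genes past 1.5-fold in at least 24 pairs, 79.5%, was 63.2% with CPM. Cells of unknown mice and cultures limit every value to these cells, and low genes are limited by the amount of RNA captured from 1 cell.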
